A study of Mus musculus with 6 samples.

Results

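Liver immune cells at the micrometastasis stage were compared, across all measured genes, between mice that carried tumour cells with a knockdown of Tim3 and mice that carried control tumour cells. All cells of the micrometastasis matrix were used, 10248 of the 23008 cells of the series, and the library suffix of each barcode divided them into 5106 cells of the control library (Ctrl) and 5142 of the knockdown library (Tim3-KD). Every feature named for 1 gene was taken, 2627 of the 2669 features in the matrix. Both groups were CD45+ cells sorted at day 3 from liver of Balb/c mice, which have a complete immune system, after injection of 4T07 cells into the heart. 4T07 is a mouse mammary tumour line, here with luciferase and GFP. Ctrl mice received 4T07 cells with a control shRNA and Tim3-KD mice 4T07 cells with an shRNA against Tim3. The mice themselves had intact Tim3 in both groups, and their age is not given in the sources used here. The cells of a pair of mice were pooled into each library, and no group had a second one. There were thus no replicates, no test between the groups was possible, and all intervals below are 95% exact intervals that cover counting error only.

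TIM3, the product of Havcr2, is a receptor of activated T cells, dendritic cells and macrophages that restrains immune responses, and some tumour cells carry it as well. In the liver, resident Kupffer cells take up particles and dying cells from the blood, while neutrophils and monocytes enter from the circulation. Neutrophils mature in steps: early precursors divide and fill azurophil granules with proteases, later ones make specific granules, and mature cells stop dividing and become responsive to inflammatory signals.

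The Ctrl library held 55971527 UMIs (unique molecular identifiers, counts of RNA molecules) with a median of 7531 per cell, and the Tim3-KD library 79971792 UMIs with a median of 9359.5. The genes of the matrix held 12.0% and 10.3% of these. Levels are given as CPM, the UMIs of a gene scaled to a common total over all genes, and ratios are Tim3-KD over Ctrl. A gene was called higher or lower if it differed at least 2-fold and had at least 100 UMIs over both libraries, which all 2627 genes had. The 2 libraries shared 7 cell barcodes. Since the knockdown was in tumour cells, which a CD45 sort leaves out, Havcr2 in these cells does not check the group labels. The gene of CD45 itself, Ptprc, and the tumour and stromal markers Epcam, Krt8, Krt18, Krt19, Col1a1 and Dcn were not among the features, so the sort was checked only through immune genes and through 5 markers of other cells. In Ctrl and Tim3-KD the endothelial markers Clec4g and Kdr were at 26.1 and 7.29 CPM and at 11.8 and 2.83 CPM, the hepatocyte markers Alb and Apoa1 at 10.4 and 15.6 CPM and at 3.198 and 4.18 CPM, and the platelet marker Pf4 at 10.2 and 12.7 CPM. Pf4 was also a leading gene of an unnamed cluster described below, so it did not check for platelets alone.

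The libraries differed in how reads of near-identical genes were assigned. Of 42 features that joined several genes, 3 were over 10-fold higher in Tim3-KD, 9 were over 10-fold lower, 2 were at 0 in Ctrl and 7 at 0 in Tim3-KD. A feature for Ly6c1 and Ly6c2 together had 25578 UMIs in Tim3-KD and 0 in the other library. Ly6c1 alone stood at 132 and 130.2 CPM and Ly6c2 alone at 231 and 239 CPM, but with the joint feature their sum was 363 CPM in Ctrl against 689 in Tim3-KD (ratio of 1.898, 1.87 to 1.93). The 40 single genes that also appear in such a feature are uncertain for this reason and carry an asterisk where they are named. Rps18.ps5*, a ribosomal protein copy with 61 and 103327 UMIs, is among them.

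Clustering of the cells, with names from marker genes, gave 11 named classes and 2 clusters without a name. Neutrophil precursor-like cells made up 11.0% (10.2 to 11.9) of Ctrl cells and 28.1% (26.9 to 29.4) of Tim3-KD cells, and haematopoietic progenitor-like cells 2.23% (1.85 to 2.68) of Ctrl cells and 5.56% (4.95 to 6.22) of Tim3-KD cells. B-like cells made up 12.7% (11.8 to 13.7) of Ctrl cells and 1.38% (1.08 to 1.74) of Tim3-KD cells. NK or ILC1-like cells were 3.43% (2.95 to 3.96) of Ctrl cells and 0.642% (0.442 to 0.9001) of Tim3-KD cells. An unnamed cluster led by Sdc4, Ccl24, Spp1, Trem2 and class II genes held 8.38% (7.64 to 9.18) of Ctrl cells and 1.21% (0.926 to 1.54) of Tim3-KD cells. Another unnamed cluster, led by Pf4, Thbs1, Ctsl and Alb, held 3 cells of Ctrl (0.0588%, 0.0121 to 0.172) and 76 of Tim3-KD (1.48%, 1.17 to 1.85). Endothelial-like cells were 1.53% (1.21 to 1.903) of Ctrl and 0.739% (0.523 to 1.01) of Tim3-KD cells. With micrometastasis clustered alone, precursor-like cells were 7.403% of Ctrl and 20.01% of Tim3-KD cells and progenitor-like cells 2.06% and 3.27%, and the cluster with Sdc4, Ccl24 and class II genes among its leading genes held 396 and 128 cells. Closer shares were those of mature neutrophil-like (28.4% and 31.2%), monocyte-like (13.4% and 14.1%) and Kupffer-like cells (5.39% and 4.98%). Precursor-like cells were rich in RNA, with medians of 27097 and 27932 UMIs, and gave 30.2% of the UMIs of Ctrl and 51.03% of those of Tim3-KD. In sums over a library alone, fewer cells of a type and less RNA per cell cannot be told apart. Median UMIs per cell were 3484 and 4233 in B-like, 3261 and 5454 in NK or ILC1-like and 11074 and 7709 in dendritic cell-like cells.

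**Figure D1:**
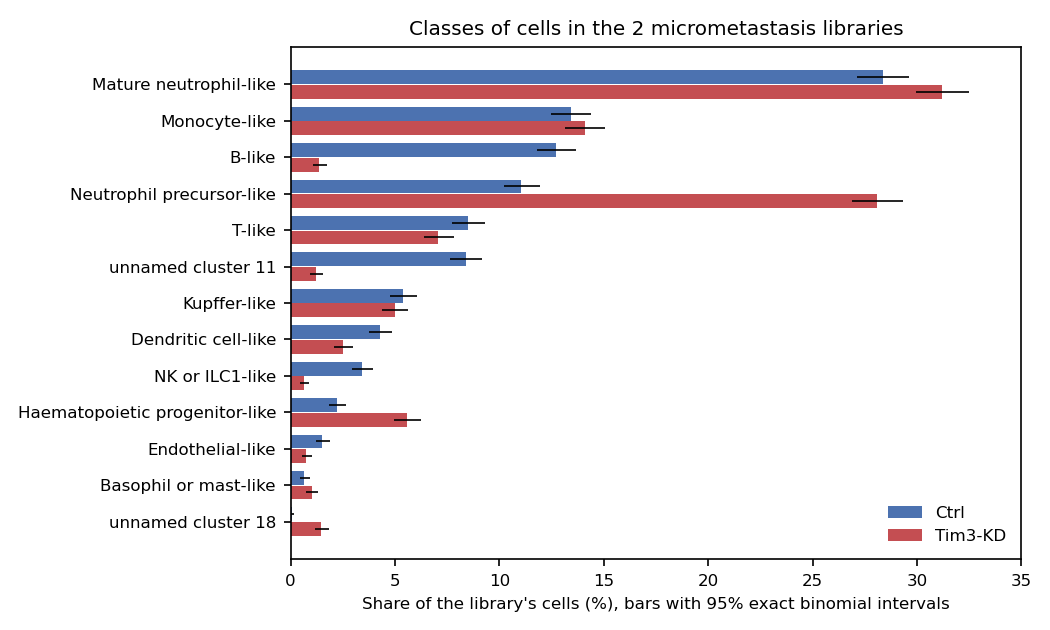
Share of each library's cells in each class, in percent, with 95% exact binomial intervals that cover counting error only. Neutrophil precursor-like cells were 11.0% of Ctrl and 28.1% of Tim3-KD, and B-like cells 12.7% and 1.38%.

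Over whole libraries, 17 of 2627 genes (0.647%) were at least 2-fold higher in Tim3-KD and 471 (17.9%) at least 2-fold lower. The measured genes were thus shifted as a body: their median log2 ratio was -0.43 and their trimmed mean -0.44. Genes outside the matrix, which hold most UMIs, were not analysed here. Relative to the trimmed mean, 75 genes (2.85%) were at least 2-fold higher and 232 (8.83%) lower. In what follows a log2 ratio near -0.44 is the level of the typical gene, and ratios are on the scale of total UMIs unless another scale is named.

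**Figure D2:**
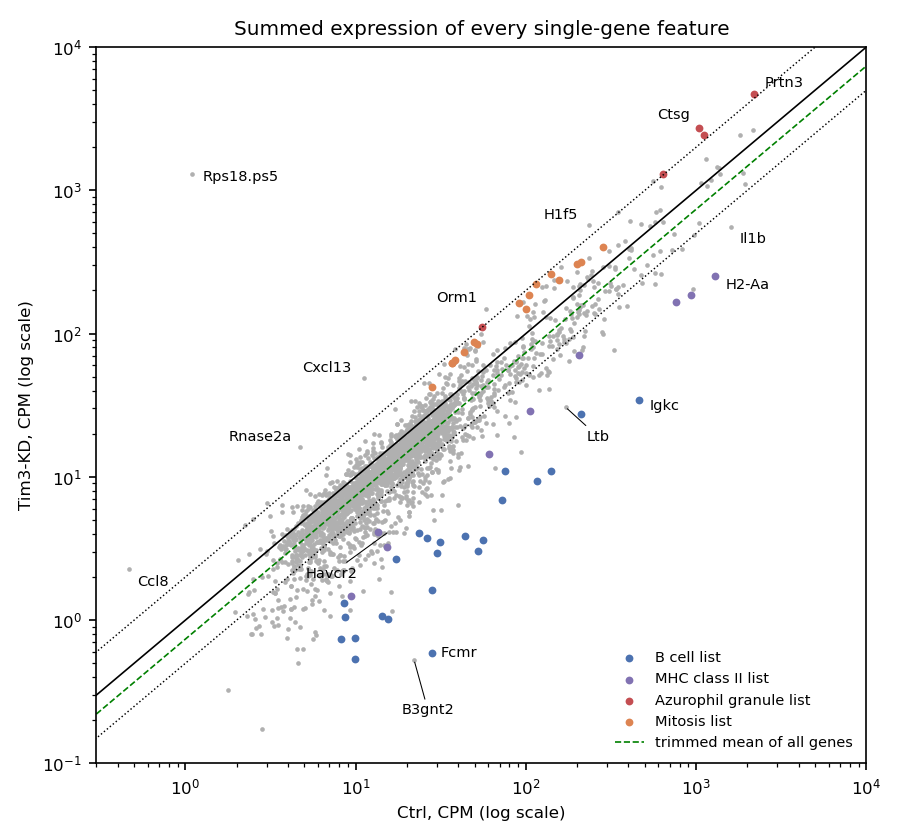
Level of each of the 2627 genes in Ctrl (x axis, CPM) and Tim3-KD (y axis, CPM), both on log scales. The solid line marks equal levels, dotted lines a 2-fold difference and the dashed line the trimmed mean of -0.44 on the log2 scale. Azurophil granule and mitosis genes lie above the solid line, and B cell and MHC class II genes below the lower dotted line.

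Apart from Rps18.ps5*, the genes of highest ratio included chemokines, a ribonuclease, a histone and genes of the neutrophil granule. Cxcl13, which attracts B cells, was at 11.2 CPM in Ctrl against 48.7 in Tim3-KD (ratio of 4.33, 3.98 to 4.72). Rnase2a, of the eosinophil-associated ribonuclease family, was at 4.68 CPM in Ctrl against 16.2 in Tim3-KD (ratio of 3.45, 3.02 to 3.96). Ccl8, a chemokine for monocytes and lymphocytes, had 0.465 CPM in Ctrl against 2.28 in Tim3-KD (ratio of 4.899, 3.24 to 7.702), a low level in both. Orm1, an acute phase protein, was at 58.5 CPM in Ctrl against 149 in Tim3-KD (ratio of 2.55, 2.45 to 2.65). H1f5, a linker histone made in dividing cells, was at 235 CPM in Ctrl against 574 in Tim3-KD (ratio of 2.44, 2.39 to 2.49). Serpinb1a, an inhibitor of neutrophil proteases, was at 561 CPM in Ctrl against 1163 in Tim3-KD (ratio of 2.07, 2.05 to 2.102), and Ltc4s, the enzyme that makes leukotriene C4, at 3.02 CPM in Ctrl against 6.59 in Tim3-KD (ratio of 2.18, 1.83 to 2.61). Fgb, the fibrinogen beta chain that hepatocytes make, was at 2.48 CPM in Ctrl against 5.09 in Tim3-KD (ratio of 2.05, 1.69 to 2.503).

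Azurophil granule genes were called higher in 5 of 5 measured members, with a median log2 ratio of 1.11, where 0.647% of all genes were. Ctsg, which encodes the serine protease cathepsin G, was at 1035 CPM in Ctrl against 2737 in Tim3-KD (ratio of 2.65, 2.62 to 2.67). Elane, neutrophil elastase, was at 1118 CPM in Ctrl against 2445 in Tim3-KD (ratio of 2.19, 2.17 to 2.21). Prtn3, proteinase 3, was at 2189.9 CPM in Ctrl against 4728 in Tim3-KD (ratio of 2.16, 2.15 to 2.17) and had the largest difference in CPM of all genes, 2538 CPM. Mpo, myeloperoxidase, which makes hypochlorous acid, was at 641 CPM in Ctrl against 1309 in Tim3-KD (ratio of 2.04, 2.02 to 2.07), and Prss57, another granule protease, at 55.2 CPM in Ctrl against 111 in Tim3-KD (ratio of 2.02, 1.93 to 2.101). Ms4a3, a membrane protein of granulocyte and monocyte precursors, was likewise higher (349 CPM in Ctrl against 703 in Tim3-KD (ratio of 2.01, 1.98 to 2.05)). Genes of the later, specific and gelatinase granules did not share this: of 8 measured members 0 were called in either direction, and their median log2 ratio was 0.17. Chil3 stood highest among them at 0.76, while Ltf, lactoferrin, was at 0.13 and Mmp9 at -0.06. Stefin A genes, cysteine protease inhibitors of mature neutrophils, had a median of 0.02 over 4 members.

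Since the azurophil genes were higher together, the 250 bases before the start of 4 of them are shown, from RefSeq on build GRCm38.p6 and 5′ to 3′ on the strand of the gene. Prss57 had no entry in the table used. The capitals mark GAGGAAG, a string with the core of sites for ETS factors such as PU.1, searched on both strands. It is present in 10.6% of 32851 promoters of this length, and the matches below are a description of the letters alone. Prtn3 (chr10:79879417-79879666, + strand) and Elane (chr10:79886062-79886311, + strand) are neighbours whose starts lie 6645 bases apart. Mpo (chr11:87793534-87793783, + strand) has 2 matches and Ctsg (chr14:56102575-56102824, - strand) 1.
Prtn3: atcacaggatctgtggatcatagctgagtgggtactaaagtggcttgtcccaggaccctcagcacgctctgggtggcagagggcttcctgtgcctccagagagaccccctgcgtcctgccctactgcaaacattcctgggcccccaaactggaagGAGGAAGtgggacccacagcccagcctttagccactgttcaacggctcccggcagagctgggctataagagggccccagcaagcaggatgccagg
Elane: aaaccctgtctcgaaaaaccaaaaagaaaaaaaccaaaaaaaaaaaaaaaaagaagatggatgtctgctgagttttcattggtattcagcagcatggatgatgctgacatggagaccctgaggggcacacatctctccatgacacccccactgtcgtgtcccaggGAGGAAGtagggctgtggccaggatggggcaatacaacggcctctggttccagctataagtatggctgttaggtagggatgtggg
Mpo: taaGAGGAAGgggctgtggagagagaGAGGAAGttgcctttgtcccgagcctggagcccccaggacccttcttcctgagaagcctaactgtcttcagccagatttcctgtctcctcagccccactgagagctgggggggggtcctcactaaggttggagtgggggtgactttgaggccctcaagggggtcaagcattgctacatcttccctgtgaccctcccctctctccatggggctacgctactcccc
Ctsg: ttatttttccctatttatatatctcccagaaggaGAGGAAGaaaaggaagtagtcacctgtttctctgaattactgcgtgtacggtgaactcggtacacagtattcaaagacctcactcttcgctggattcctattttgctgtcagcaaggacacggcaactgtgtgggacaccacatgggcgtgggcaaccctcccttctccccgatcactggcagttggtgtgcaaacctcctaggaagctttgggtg

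Within the neutrophil precursor-like class, the azurophil genes differed much less than over the library. Elane was at 3454 and 4332 CPM in Ctrl and Tim3-KD, Prtn3 at 6252 and 7702 CPM and Mpo at 1572 and 1904 CPM. In the precursor cluster of highest azurophil levels, which held 68 Ctrl and 299 Tim3-KD cells, the ratios were 1.01 for Elane, 1.01 for Prtn3, 0.9896 for Mpo and 1.26 for Ctsg. These were the lowest ratios of the 4 genes among the clusters with enough UMIs. In the other 2 large precursor clusters the ratios were 1.21 and 2.15 for Elane, 1.175 and 1.46 for Prtn3, 1.14 and 1.08 for Mpo and 1.496 and 1.57 for Ctsg, where the second value of each pair is from a cluster in which these genes were low. In progenitor-like cells, which form 1 cluster, they were 1.695, 1.58, 1.18 and 1.67, and the median log2 ratio of the list was 0.66 there against 0.301 in the precursor-like class. Prtn3 was above 1 in each of 6 clusters. Cell cycle genes showed the same order of values. All 16 measured mitosis genes lay between 0.50 and 0.95 on the log2 scale (median 0.76), none past 2-fold, with Mki67 at 91.3 and 163 CPM and Top2a at 104 and 184 CPM. Inside the 3 large precursor clusters their medians were -0.40, 0.09 and -0.05. Of 4 S phase genes, Mcm3, Rrm2 and Tyms were at 0.72, 0.76 and 0.75, and Dut, which keeps uracil out of DNA, at -0.36.

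B cell genes lay at the other end. All 23 measured members were called lower (17.9% of all genes were), with a median log2 ratio of -3.496. Fcmr, the receptor for the Fc part of IgM, was at 28.2 CPM in Ctrl against 0.588 in Tim3-KD (ratio of 0.0208, 0.0153 to 0.0279). Fcer2a, the B cell IgE receptor CD23, was at 9.92 CPM in Ctrl against 0.538 in Tim3-KD (ratio of 0.0542, 0.0388 to 0.07401), and Ms4a1, which encodes CD20, at 52.5 CPM in Ctrl against 3.05 in Tim3-KD (ratio of 0.0581, 0.0508 to 0.0663). Pax5, the transcription factor that keeps B cell identity, was at 14.3 CPM in Ctrl against 1.06 in Tim3-KD (ratio of 0.0743, 0.0587 to 0.09297) and Pou2af1, a coactivator of immunoglobulin genes, at 15.6 CPM in Ctrl against 1.03 in Tim3-KD (ratio of 0.0658, 0.0518 to 0.0826). Igkc, the kappa light chain constant region, was at 462 CPM in Ctrl against 34.6 in Tim3-KD (ratio of 0.0749, 0.07195 to 0.0778). Vpreb3, Iglc1 and Fcrla, also B lineage genes, had ratios of 0.05795, 0.0653 and 0.0701. Within B-like cells Igkc was at 7646 and 6268 CPM, so that its level per UMI of these cells was close, whereas Fcmr was at 479 and 101 CPM (ratio of 0.2101, 0.144 to 0.296) there. The B-like class held 71 cells in Tim3-KD, too few for the within-class lists.

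MHC class II genes, which present antigen to CD4 T cells, were called lower in 9 of 9 members (17.9% of all genes), with a median of -2.202. H2-Aa was at 1289 CPM in Ctrl against 250.3 in Tim3-KD (ratio of 0.194, 0.191 to 0.197), H2-Ab1 at 937 CPM in Ctrl against 187 in Tim3-KD (ratio of 0.1997, 0.196 to 0.203) and H2-Eb1 at 759 CPM in Ctrl against 165 in Tim3-KD (ratio of 0.217, 0.213 to 0.222). H2-Ea, outside the list, was at 957 CPM in Ctrl against 204 in Tim3-KD (ratio of 0.214, 0.2099 to 0.217). Ciita, the coactivator that switches these genes on, was at 15.2 CPM in Ctrl against 3.23 in Tim3-KD (ratio of 0.212, 0.184 to 0.244), and H2-Ob, part of the exchange factor H2-O, at 9.45 CPM in Ctrl against 1.46 in Tim3-KD (ratio of 0.155, 0.126 to 0.189). In 3 classes that carry class II the levels were close. H2-Aa in dendritic cell-like cells was at 8651 and 7924 CPM, in B-like cells at 4660.5 and 4424 CPM and in Kupffer-like cells at 2017 and 2140.3 CPM. In the unnamed cluster led by Sdc4 and class II genes it was at 5353 and 3976 CPM (ratio of 0.743, 0.711 to 0.776), and in monocyte-like cells at 553 and 111 CPM (ratio of 0.2003, 0.187 to 0.214). The promoters of 2 class II genes are shown from the same source, with capitals for CTGATTGG, which holds the inverted CCAAT box of class II promoters, searched on both strands and present in 3.83% of 32851 promoters. H2-Aa (chr17:34287824-34288073, - strand) and H2-Eb1 (chr17:34305617-34305866, + strand) each have 1 match, and the other members of the list, H2-Ab1 among them, are not shown.
H2-Aa: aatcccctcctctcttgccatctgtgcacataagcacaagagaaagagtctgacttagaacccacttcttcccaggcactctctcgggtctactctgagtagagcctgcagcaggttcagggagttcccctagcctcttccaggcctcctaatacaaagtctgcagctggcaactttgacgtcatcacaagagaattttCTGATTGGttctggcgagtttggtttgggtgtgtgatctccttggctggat
H2-Eb1: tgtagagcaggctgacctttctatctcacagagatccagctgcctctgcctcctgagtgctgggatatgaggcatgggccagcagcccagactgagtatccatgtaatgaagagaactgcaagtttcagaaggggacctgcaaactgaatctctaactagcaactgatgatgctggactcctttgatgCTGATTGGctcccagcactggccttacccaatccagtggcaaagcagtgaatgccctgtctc

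Lists of other lymphocytes, dendritic cells and endothelium also had larger shares of lower genes than the 17.9% of all genes. Of the T cell receptor and naive T cell list, 15 of 29 members were called lower (median -1.07), led by Ccr7, the homing receptor of naive T cells (39.8 CPM in Ctrl against 6.35 in Tim3-KD (ratio of 0.1597, 0.145 to 0.176)), which had its highest level in B-like cells (499 and 476 CPM), and by Trdc (3.97 CPM in Ctrl against 0.7503 in Tim3-KD (ratio of 0.189, 0.1398 to 0.253)). Cd3d, by contrast, was at -0.16 on the log2 scale. Of the cytotoxic and NK list, 17 of 24 were lower (median -1.22), among them Cma1 (2.82 CPM in Ctrl against 0.175 in Tim3-KD (ratio of 0.06202, 0.0331 to 0.107)) and Ncr1, the NK receptor NKp46 (14.3 CPM in Ctrl against 2.35 in Tim3-KD (ratio of 0.164, 0.1396 to 0.193)), while Nkg7 was at 0.43. Of the dendritic cell list, 9 of 16 were lower (median -1.03), with Itgax, which encodes CD11c, at 10.6 and 2.41 CPM and Klk1, a marker of plasmacytoid cells, at 15.4 and 3.45 CPM. Of the endothelial list, 11 of 16 were lower (median -1.44), with Kdr, the receptor for VEGF, and Ptprb, a vascular phosphatase, at ratios of 0.2400 and 0.237. With each class at the same weight, as described next, the medians were -0.19 for the T cell list, -0.19 for dendritic cells and -0.37 for endothelium, and that of the cytotoxic and NK list had the opposite sign, 0.0229.

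To set the mix of classes apart from levels inside classes, CPM were recomputed over the 11 named classes, with each at the same weight in both libraries. The unnamed clusters were left out of this scale. The one led by Sdc4 held 8.32% of Ctrl UMIs and 0.698% of Tim3-KD UMIs. For 159 genes it had the highest level of the classes compared, and 58 of these were called lower over whole libraries. On the standardised scale, 12 genes (0.457%) were at least 2-fold higher, 46 (1.75%) lower, and the median over all genes was -0.10. Of the 17 higher genes 6 were still past 2-fold, and their median went from 1.13 to 0.65. Of the 471 lower genes 44 were still past 2-fold and 45 had the opposite sign, and the median went from -1.42 to -0.42. The median of the B cell list went from -3.496 to -0.49, MHC class II from -2.202 to -0.201, the dendritic cell list from -1.03 to -0.19 and the azurophil list from 1.11 to 0.402. For class II, the move also holds the loss of the cluster led by Sdc4. That cluster had 24915 of the 72139 H2-Aa UMIs of Ctrl and 2220 of the 20018 of Tim3-KD. The 12 genes past 2-fold on this scale were the 6 and 6 others, and included Cxcl13 (2.93), Rnase2a (2.88) and Mertk (1.42), the last of which had not passed 2-fold over whole libraries (0.81). The genes still lower included B3gnt2 (-5.77), H2ac20 (-2.38), Ltb (-2.28), Trim5 (-2.26), Fcmr (-2.25), Cxcl3* (-2.21), Ptgs2 (-1.65) and Il1b (-1.25).

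**Figure D3:**
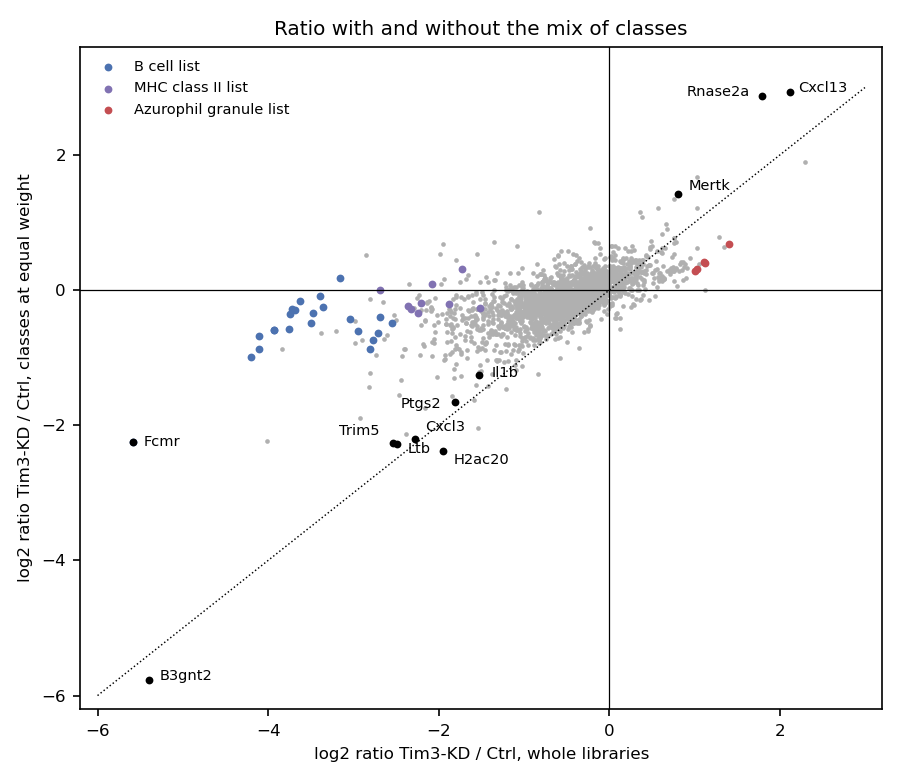
Log2 ratio of each gene over whole libraries (x axis) against its log2 ratio with every named class at the same weight (y axis). The unnamed clusters are left out of the latter. Genes on the dotted diagonal differed equally on both scales. B cell and MHC class II genes, far left on the x axis, lie mostly near 0 on the y axis, whereas B3gnt2, Ltb, Trim5 and H2ac20 lie near the diagonal.

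Of the genes of inflammatory signalling some were lower and others not, where 17.9% of all genes were called lower. Il1b, the gene of interleukin 1 beta, was at 1609.8 CPM in Ctrl against 558 in Tim3-KD (ratio of 0.347, 0.343 to 0.351) and its difference was -1052 CPM. It was at 5862 and 2246 CPM (ratio of 0.383, 0.378 to 0.389) in the mature neutrophil-like class and at 1289 and 384 CPM (ratio of 0.298, 0.287 to 0.309) in the monocyte-like one, but at 892 and 853 CPM in Kupffer-like cells. In 6 clusters with enough UMIs its ratios were 0.448 to 0.857, all below 1. Il1rn, the natural inhibitor of IL-1, was lower too, at 46.5 CPM in Ctrl against 19.3 in Tim3-KD (ratio of 0.416, 0.3900 to 0.443), and 3 of 11 members of the IL-1 and inflammasome list were called lower, with a median of -0.41 that is near that of the typical gene and turns to 0.0272 relative to the trimmed mean. In the NF-kB response list 7 of 25 were called lower (median -0.62), but 4 of 22 (18.2%) without genes that share reads with a near copy, and 2 of 25 with each class at the same weight (median -0.28). Cd83 and Cd40, which mark activated antigen-presenting cells, were at 93.6 and 14.98 CPM and 11.1 and 1.59 CPM. Both had their highest level in B-like cells, and with each class at the same weight their ratios were 0.604 and 0.426. Ptgs2, the enzyme COX-2, was at 41.1 CPM in Ctrl against 11.7 in Tim3-KD (ratio of 0.285, 0.264 to 0.308). Tnf did not pass 2-fold, at 46.95 CPM in Ctrl against 79.5 in Tim3-KD (ratio of 1.69, 1.62 to 1.77). Its ratio was above 1 in each of 12 clusters with enough UMIs, from 1.03 to 4.78.

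The list of neutrophil receptors and migration was close to the typical gene. Of its 17 members 2 were called lower, Clec7a and C3ar1, the receptor for the complement peptide C3a, a share below the 17.9% of all genes, and the median was -0.49. Cd14, which hands endotoxin to TLR4, did not pass 2-fold and was at 1033 CPM in Ctrl against 589 in Tim3-KD (ratio of 0.5698, 0.563 to 0.577) with ratios of 0.546 to 0.902 in 8 clusters. Tlr4 had ratios of 0.441 to 0.7201 in 8 clusters, and Clec7a, the fungal glucan receptor, 0.6200 to 0.7197 in 6 clusters. Clec4e and Trem1, other receptors of the list, were at -0.11 and -0.25 on the log2 scale over the libraries. Of the immediate early and stress list, 8 of 27 were lower (median -0.77), 2 with each class at the same weight (median -0.39) and 3 relative to the trimmed mean, with Egr2 at 20.5 and 5.69 CPM and Nr4a3 at 25.7 and 7.603 CPM. Chemokine ligands split: 2 of 18 were higher, Cxcl13 and Ccl8, and 7 were lower (median -0.81), with Ccl24, which attracts eosinophils, at 327 CPM in Ctrl against 76.8 in Tim3-KD (ratio of 0.235, 0.228 to 0.242) and Cxcl3*, which attracts neutrophils, at 28.5 CPM in Ctrl against 5.88 in Tim3-KD (ratio of 0.206, 0.186 to 0.229).

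The remaining lists are read against the 17.9% of all genes that were called lower. The shares of the type I interferon, interferon gamma and Kupffer cell lists were near it. Of the type I interferon list 7 of 35 were lower (median -0.48), led by Ms4a4c, a gene of inflammatory monocytes, at 178 and 64.7 CPM and Ifi44 at 54.8 and 21.4 CPM. Of the interferon gamma list 3 of 23 were lower (median -0.53), Ciita and Gbp8 among them, the latter a guanylate-binding protein at 9.08 and 4.04 CPM. Of the monocyte list 6 of 17 were lower (median -0.77), with Cx3cr1, the fractalkine receptor of patrolling monocytes, at 20.5 and 5.34 CPM. The lesion and repair macrophage list had 9 of 19 lower (median -0.96), with Mmp12, macrophage elastase, at 5.59 and 0.738 CPM and Retnla at 1.77 and 0.325 CPM. The Kupffer cell list had 4 of 23 lower (median -0.703), including Adgre4 at 10.9 and 4.53 CPM and Fabp7 at 35.1 and 16.3 CPM, and complement 2 of 9 (median -0.65). Suppression and checkpoint genes had 3 of 11 lower (median -0.83), Havcr2, Trem2 and Siglecg (17.7 and 5.24 CPM). With each class at the same weight the medians were closer to 0, at -0.18 for type I interferon, -0.12 for interferon gamma, -0.14 for monocyte, -0.11 for lesion and repair macrophage, -0.084 for Kupffer cell, -0.078 for complement and -0.17 for suppression and checkpoint genes. That of the chemokine list was -0.13. These values leave out the unnamed cluster led by Sdc4, where genes of these lists such as Trem2, Retnla and C3ar1 had their highest level.

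Metabolic and matrix genes varied around the typical gene. Hypoxia and glycolysis genes had 2 of 11 lower (median -0.77), Vegfa at 24.8 and 9.08 CPM and Ankrd37 at 9.701 and 4.48 CPM. Arginine, itaconate and polyamine genes had 1 of 6 (median -0.58), the cystine transporter Slc7a11 at 31.1 and 14.5 CPM. Matrix and clotting genes had 2 of 10 lower (median -0.39), Mmp14 at 8.41 and 2.24 CPM and Sparc at 7.04 and 2.89 CPM. In the lists that follow, counts of higher genes are read against the 0.647% of all genes. Acute phase genes had 2 of 3 higher (median 1.04). The progenitor list had 1 of 12 higher, Ms4a3, and a median of -0.11. 0 of 10 basophil and mast cell genes were called (median -0.21). The lists with few measured members were hepatocyte (1 of 5 higher, Fgb, median 0.39), erythroid (1 of 2 lower, Car2 at 9.97 and 3.74 CPM, median -0.96), platelet (0 of 2, 0.12), mesenchymal (0 of 2, -0.16), eosinophil (Ccr3, -0.58) and epithelial and tumour line (Sparc, -1.29). Epcam and the keratins of the last list were not measured. Its value is that of Sparc alone, which is also in the matrix list and does not mark epithelial cells here.

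**Figure D4:**
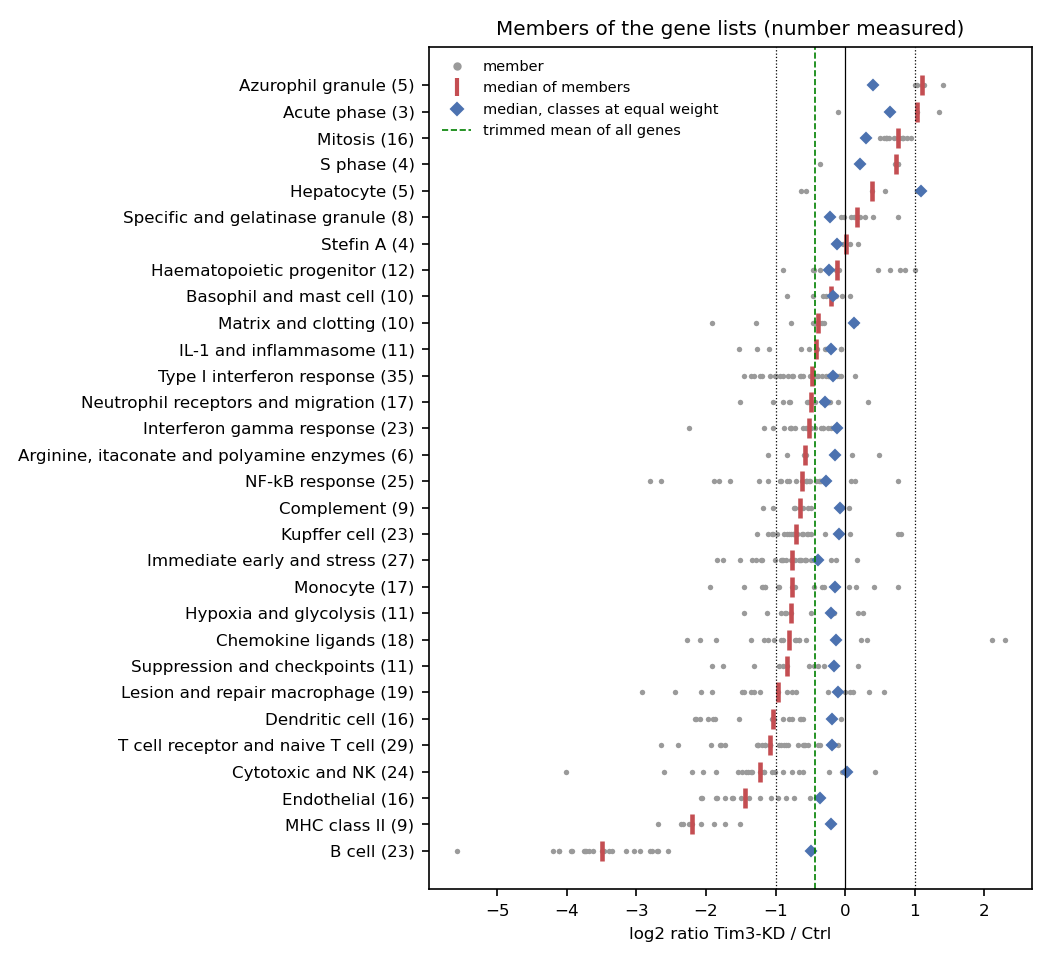
Log2 ratio, Tim3-KD over Ctrl, of each member of the lists with at least 3 measured genes. Red bars mark the median of a list, blue diamonds its median with the classes at the same weight, the dashed line the trimmed mean of all genes and dotted lines a 2-fold difference. The azurophil list (1.11) stands at the top and the B cell list (-3.496) at the bottom, and the diamonds of most lists lie closer to 0 than the bars.

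7 classes had at least 100 cells in both libraries, and genes were compared inside each. In Kupffer-like cells (275 and 256 cells), 16 of 1154 genes were higher (1.39%) and 7 lower (0.607%). Cxcl13 came mainly from this class, which held 518 of its 629 UMIs in Ctrl and 3713 of 3895 in Tim3-KD, and stood at 209 CPM in Ctrl against 1616 in Tim3-KD (ratio of 7.72, 7.04 to 8.48). Marco, a scavenger receptor for bacteria and particles, was at 846 and 2171 CPM (ratio of 2.57, 2.44 to 2.701), and Mertk, a receptor for the uptake of dying cells, at 299 and 846 CPM (ratio of 2.83, 2.598 to 3.08). Il10, an anti-inflammatory cytokine, was at 29.5 and 68.3 CPM (ratio of 2.32, 1.74 to 3.100), Cfb, complement factor B, at 89.7 and 189 CPM (ratio of 2.11, 1.79 to 2.49) and Ccl7, a monocyte chemokine, at 67.5 and 142 CPM (ratio of 2.101, 1.74 to 2.55). Lower were Mmp12 at 58.6 and 5.22 CPM (ratio of 0.0891, 0.04499 to 0.1604), the lipid receptor Trem2 at 112 and 39.2 CPM (ratio of 0.349, 0.272 to 0.444), Cd207, the lectin langerin, at 43.7 and 16.1 CPM and Egr2 at 60.2 and 22.6 CPM. In the large Kupffer-like cluster alone (214 and 252 cells) the ratios were 8.59 for Cxcl13, 2.75 for Marco, 2.55 for Mertk, 0.0788 for Mmp12 and 0.3600 for Trem2. Ccl7 was at 1.87 there, below 2-fold. A second cluster, of 61 and 4 cells, made up the rest of the class.

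Hepatocyte transcripts were higher in the same Kupffer-like cells, in 3 of 5 measured genes, with a median log2 ratio of 1.63. Alb, albumin, was at 78.8 and 277 CPM (ratio of 3.52, 2.99 to 4.15), Fgb at 21.4 and 78.3 CPM (ratio of 3.66, 2.68 to 5.07) and Apoa1, the main protein of HDL, at 21.02 and 64.8 CPM (ratio of 3.08, 2.24 to 4.32). Elsewhere Alb was at 13.7 and 18.9 CPM in mature neutrophil-like cells, 14.4 and 18.1 CPM in dendritic cell-like cells and 2.54 and 6.49 CPM in T-like cells, with the larger value in Tim3-KD in each but at lower levels. The part of free hepatocyte RNA in these values was not tested.

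Monocyte-like cells (685 and 725 cells) had the most called genes of the 7 classes, 48 of 1363 higher (3.52%) and 80 lower (5.87%). Rnase2a was at 13.4 CPM in Ctrl against 103 in Tim3-KD (ratio of 7.67, 6.31 to 9.400), with ratios of 5.38 and 3.56 inside the 2 large monocyte-like clusters, so that it was higher in each. H1f5 was at 142 and 759 CPM (ratio of 5.35, 5.03 to 5.69) and Fbxo5, an inhibitor of the anaphase-promoting complex, at 9.04 and 40.3 CPM (ratio of 4.46, 3.48 to 5.78). Over the 4 clusters of any class with enough UMIs, the ratios of Fbxo5 were 0.888 to 1.68. Its 2-fold call was thus not seen inside a cluster. Of 16 mitosis genes 12 were higher (median 1.21), with Mki67 at 87.4 and 245 CPM and Top2a at 86.6 and 280.1 CPM, and of 4 S phase genes 3. The clusters of the class differed in number of cells, with 611 in Ctrl and 480 in Tim3-KD in the larger and 70 and 244 in the one with cell cycle genes. Inside the larger cluster 6 of 9 mitosis genes were higher (median 1.32), where 2.55% of 1334 genes were, and inside the other 0 of 16 (median -0.18), where 1.79% of 1229 genes were higher and 2.85% lower. The azurophil gene Prtn3 was at 537 and 2003 CPM (ratio of 3.73, 3.61 to 3.85) in the class. Over the 6 clusters of any class with enough UMIs its ratios were lower than this, at 1.01 to 2.00.

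Among the lower genes of this class were the following, of which Calhm6, Batf3 and Cbr3 had the lowest ratios and the others were picked after their values were seen. Calhm6, induced by interferon, was at 29.7 and 3.79 CPM (ratio of 0.128, 0.0882 to 0.1800) and Batf3, a transcription factor of myeloid cells, at 51.6 and 8.28 CPM (ratio of 0.1605, 0.125 to 0.203). Inside the larger cluster the ratios were 0.1605 for Calhm6, 0.247 for Batf3, 0.284 for Cbr3, 0.405 for Cx3cr1, 0.616 for Cd14 and 0.392 for Vegfa. Cbr3, a carbonyl reductase, was at 34.6 and 6.19 CPM (ratio of 0.179, 0.134 to 0.236). Cx3cr1 was at 35.3 and 11.3 CPM, Cd14 at 1350.4 and 597 CPM and Vegfa at 48.5 and 14.97 CPM. Of 25 type I interferon genes 5 were lower (median -0.74), with Isg15, a ubiquitin-like protein, at 194 and 74.03 CPM, but inside the larger cluster, where 3.37% of genes were lower, 0 of 25 were (median -0.18). Of 10 interferon gamma genes 3 were lower in the class (median -0.86), where 5.87% of genes were. Inside the larger cluster 0 of 10 were (median -0.26), and inside the other large one 0 of 7 (median -0.23). Ass1, which makes the precursor of arginine, was at 75.3 and 164 CPM (ratio of 2.18, 1.98 to 2.39) in the class, but its ratios inside the 2 large clusters were 1.05 and 1.08.

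Mature neutrophil-like cells (1448 and 1605 cells) had 8 of 1138 genes higher (0.703%) and 33 lower (2.90%). Ptgs2 was at 115 and 19.99 CPM (ratio of 0.175, 0.152 to 0.2004), Cxcl3* at 118 and 20.96 CPM (ratio of 0.177, 0.154 to 0.203) and Gadd45a, a stress protein that acts on growth arrest, at 264 and 88.4 CPM (ratio of 0.334, 0.311 to 0.359). Inside the 2 large clusters, of 651 and 459 cells and of 789 and 1140 cells, the ratios were 0.233 and 0.253 for Ptgs2, 0.187 and 0.204 for Cxcl3*, and 0.396 and 0.337 for Gadd45a. Of 15 immediate early genes 6 were lower in the class (median -0.93), and 3 and 2 inside these clusters, where 25 of 1111 and 17 of 1134 genes were. Csrnp1 was at 343 and 124 CPM, Egr1 at 706 and 337 CPM and Nr4a1 at 255 and 113 CPM. Slc7a11 was at 103 and 40.3 CPM and Ccrl2, a chemerin-binding receptor, at 1751 and 849 CPM. Over clusters of any class with enough UMIs, ratios were 0.625 to 1.87 for Ccrl2 and 0.566 to 0.910 for Egr1. Their 2-fold calls were thus not seen inside a cluster. The lowest cluster ratios of Csrnp1, Nr4a1 and Slc7a11 were 0.407, 0.480 and 0.350. The higher genes were of low level: Adamts10, a protease of the extracellular matrix, was at 2.54 and 6.72 CPM, Zer1 at 5.18 and 11.6 CPM and Bbc3, which encodes the pro-apoptotic protein PUMA, at 7.43 and 16.7 CPM.

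Neutrophil precursor-like cells (564 and 1445 cells) differed in few genes, 5 of 875 higher (0.571%) and 17 lower (1.94%). Gm26532, a long noncoding RNA, was at 6.38 and 20.4 CPM (ratio of 3.196, 2.61 to 3.94), E230001N04Rik at 3.96 and 8.23 CPM and Bbc3 at 4.67 and 9.51 CPM. Lower were B3gnt2 at 37.2 and 0.539 CPM (ratio of 0.0145, 0.00903 to 0.0222), H2ac20, a histone H2A gene, at 96.4 and 13.5 CPM (ratio of 0.1398, 0.127 to 0.154), Trim5 at 19.9 and 2.82 CPM (ratio of 0.142, 0.114 to 0.175) and Gadd45a at 184 and 59.7 CPM. Haematopoietic progenitor-like cells (114 and 286 cells) had 11 of 1013 genes higher (1.09%) and 30 lower (2.96%). Genes of the monocyte and platelet lineages were among the higher ones: Pf4, platelet factor 4, at 2.39 and 21.7 CPM (ratio of 9.12, 4.705 to 20.2) and F13a1, clotting factor XIII A, at 57.8 and 213 CPM (ratio of 3.69, 3.21 to 4.27). Ly6c2*, a monocyte surface protein, was at 40.6 and 255 CPM (ratio of 6.28, 5.33 to 7.45) and Ly6c1* at 30.7 and 136 CPM (ratio of 4.43, 3.66 to 5.404). Lower were Kit and Flt3, growth factor receptors of early progenitors, at 47.4 and 21.7 CPM and 42.4 and 19.2 CPM, and Dut at 432 and 195 CPM. H3c3* was at 79.5 and 18.5 CPM (ratio of 0.233, 0.192 to 0.282).

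Dendritic cell-like cells (219 and 129 cells) had 23 of 632 genes higher (3.64%) and 12 lower (1.90%). Rsad2, the antiviral protein viperin, was at 10.1 CPM in Ctrl against 84.03 in Tim3-KD (ratio of 8.32, 5.34 to 13.4), Oasl1 at 29.1 and 91.3 CPM (ratio of 3.13, 2.301 to 4.28) and Isg15 at 97.9 and 299.98 CPM (ratio of 3.06, 2.59 to 3.62). Serpina3g, a serpin induced by interferon gamma, was at 25.2 and 159.9 CPM (ratio of 6.33, 4.74 to 8.55), Fkbp5, induced by glucocorticoids, at 15.9 and 54.2 CPM (ratio of 3.404, 2.25 to 5.19) and Cd274, which encodes PD-L1, at 17.1 and 52.4 CPM (ratio of 3.07, 2.04 to 4.65). Tnf was at 50.5 and 158 CPM (ratio of 3.13, 2.48 to 3.96). As groups, 3 of 15 type I interferon genes, 3 of 15 NF-kB genes and 4 of 17 immediate early genes were higher and 0 lower. The heat shock genes Hspa1a* and Hspa1b*, with ratios of 2.81 and 3.36, were among the last. In the larger cluster alone (142 and 93 cells) the ratios were 8.84 for Rsad2, 3.82 for Isg15, 3.88 for Cd274 and 4.78 for Tnf. Lower were Ebpl at 41.6 and 14.5 CPM, Fam162a, a mitochondrial protein induced by low oxygen, at 59.8 and 22.6 CPM, Ltb at 53.99 and 20.8 CPM and Ass1 at 60.6 and 26.2 CPM.

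T-like cells (434 and 364 cells) had 18 of 861 genes higher (2.09%) and 26 lower (3.02%). Naive T cell genes were lower in the class as a whole: Tcf7 was at 109 and 40.4 CPM (ratio of 0.372, 0.286 to 0.4799), Lef1 at 164 and 78.9 CPM, Bcl11b at 78.02 and 34.4 CPM, Ccr7 at 188 and 90.3 CPM and Il7r, the receptor for the survival factor IL-7, at 343 and 169 CPM. These were the 5 of 28 measured list members called lower. Higher were Prf1, the pore former perforin, at 121 and 264 CPM (ratio of 2.17, 1.88 to 2.52), Mki67 at 81.4 and 197 CPM and Havcr2 at 19.5 and 49.4 CPM (ratio of 2.53, 1.77 to 3.68). The T-like clusters also differed in number, with 145 and 42 cells in the one with naive genes and 93 and 143 in the one with Cd8a and Cd8b1. Inside T-like clusters with enough UMIs the ratios were 1.98 for Lef1 in 1 cluster, 0.485 and 0.697 for Bcl11b and 0.669 and 1.18 for Il7r in 2 clusters each, and 0.645 for Ccr7, 1.4997 for Havcr2 and 1.402 for Prf1 in the cluster with Cd8a. The 2-fold calls of Il7r, Ccr7, Havcr2 and Prf1 were thus not seen inside these clusters. The cluster with naive genes had too few Tim3-KD cells for such a comparison, and the value of Lef1 is from another T-like cluster. Ltb was at 535 and 75.4 CPM (ratio of 0.141, 0.118 to 0.167), Ifngr2, a chain of the interferon gamma receptor, at 37.7 and 8.98 CPM (ratio of 0.238, 0.135 to 0.398) and Ascc3 at 53.8 and 16.5 CPM (ratio of 0.306, 0.202 to 0.452). Spp1, osteopontin, was at 30.1 and 139 CPM (ratio of 4.61, 3.54 to 6.07) and AA467197, a gene of myeloid cells, at 35.2 and 99.3 CPM (ratio of 2.82, 2.17 to 3.69). RNA of other classes also had larger values in the T-like cells of Tim3-KD, with Elane at 6.36 and 55.9 CPM, Prtn3 at 16.5 and 174 CPM, Igkc at 120.4 and 234 CPM and H2-Aa at 91.2 and 207 CPM. Its part in the higher genes of this class was not tested.

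**Figure D5:**
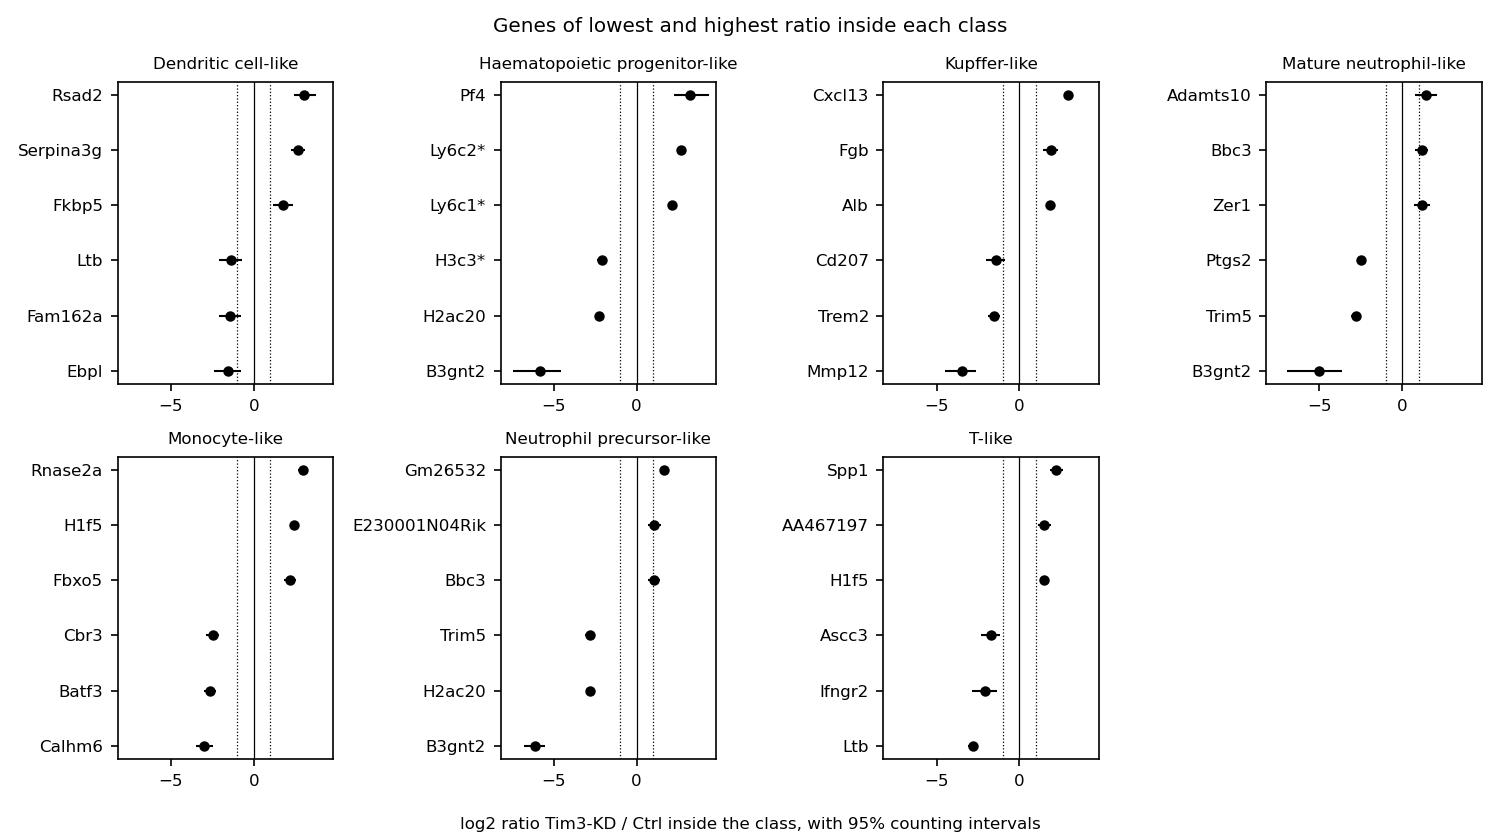
Log2 ratio, Tim3-KD over Ctrl, of the 3 top and 3 bottom genes by ratio inside each of 7 classes, with 95% counting intervals and dotted lines at a 2-fold difference. Asterisks mark genes that share reads with a near copy. B3gnt2 is lowest in 3 classes and Cxcl13 highest in Kupffer-like cells.

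Some genes differed in many classes at once. Of 841 genes measured in 4 or more classes, 2 (0.238%) were at least 2-fold lower in each of their classes, Ltb and Ebpl. Ltb, the membrane part of lymphotoxin, was at 171 CPM in Ctrl against 30.5 in Tim3-KD (ratio of 0.178, 0.1702 to 0.186) over the libraries. It was at 368 and 77.9 CPM (ratio of 0.212, 0.197 to 0.227) in mature neutrophil-like and at 479 and 70.2 CPM (ratio of 0.147, 0.0927 to 0.221) in B-like cells, and its ratios in 8 clusters were 0.122 to 0.437. In Kupffer-like cells, where its level was low, it was at 6.47 and 6.09 CPM. Ebpl, related to a sterol isomerase, was at 16.99 CPM in Ctrl against 4.75 in Tim3-KD (ratio of 0.2797, 0.248 to 0.315), with 0.312 to 0.408 in 4 clusters. At 1.5-fold, 5 genes (0.595%) were lower in each of their classes, Cdkn2aip, Pgls and H3c3* beside these, and 3 (0.357%) were higher, Gm26532, Bbc3 and Rps18.ps5*. Gm26532 had ratios of 1.56 to 3.88 in 10 clusters and Bbc3 of 1.58 to 3.02 in 8 clusters.

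B3gnt2, an enzyme that builds polylactosamine sugar chains, was at 22.05 CPM in Ctrl against 0.525 in Tim3-KD (ratio of 0.0238, 0.0171 to 0.0324). Its level in Tim3-KD was low in each class where it was measured, at 37.2 and 0.539 CPM in precursor-like, 31.01 and 0.555 CPM in progenitor-like and 10.8 and 0.324 CPM in mature neutrophil-like cells, with ratios of 0.00747 to 0.0229 in 5 clusters. In macrometastasis it was at 27.9 and 26.5 CPM in Ctrl and Tim3-KD. Trim5, of a family of antiviral genes with near copies, was at 28.8 CPM in Ctrl against 4.98 in Tim3-KD (ratio of 0.173, 0.155 to 0.193), with 0.0834 to 0.288 in 7 clusters, and H2ac20 at 45.9 CPM in Ctrl against 11.9 in Tim3-KD (ratio of 0.259, 0.2403 to 0.279), with 0.117 to 0.347 in 5 clusters. Neither shared a feature with other genes, but both have close relatives in the genome, so a different assignment of reads cannot be told apart from a different level. Ccdc85b at 14.01 CPM in Ctrl against 2.69 in Tim3-KD (ratio of 0.192, 0.164 to 0.223) and Cbr3 at 19.7 CPM in Ctrl against 4.41 in Tim3-KD (ratio of 0.224, 0.198 to 0.253) were likewise lower after standardisation (-2.13 and -1.75 on the log2 scale). Gadd45a and Fam162a were below 1 in each of 8 clusters (0.267 to 0.807) and 11 clusters (0.375 to 0.863).

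Havcr2 itself was at 15.6 CPM in Ctrl against 4.14 in Tim3-KD (ratio of 0.265, 0.233 to 0.301) in these immune cells, which the knockdown did not target. Among the named classes its level was highest in dendritic cell-like cells, at 79.2 and 68.7 CPM. In monocyte-like cells it was lower in Tim3-KD, at 22.6 and 7.38 CPM (ratio of 0.327, 0.246 to 0.4297), and in T-like cells higher, at 19.5 and 49.4 CPM. With the named classes at the same weight its log2 ratio was -0.504.

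The same contrast at the other 2 sites is set beside these values, each site with its own pair of libraries and its own shift. In macrometastasis, where 2.38% of genes were higher and 5.90% lower (trimmed mean -0.27), 8 of the 13 higher micrometastasis genes that could be measured were higher and 0 lower, and of 404 lower ones 1 was higher and 72 lower. In adjacent tissue, where 43.1% were higher and 11.0% lower (trimmed mean 0.57), 1 of 12 was higher and 10 lower, and of 418 lower ones 348 were higher and 11 lower. The adjacent tissue library of Tim3-KD held 542 cells. Prtn3 was at 1703 and 1.83 CPM in adjacent tissue and 783 and 2378 CPM in macrometastasis, Ctrl and Tim3-KD. Igkc was at 415 and 2306 CPM and 477 and 329 CPM and Cxcl13 at 3.46 and 34.6 CPM and 49.1 and 87.7 CPM, in the same order of sites and groups. Il1b was at 667 and 294 CPM in adjacent tissue. The azurophil and B cell genes thus had opposite directions in adjacent tissue, and Cxcl13 had a larger value in Tim3-KD at each of the 3 sites, which did not pass 2-fold in macrometastasis (ratio of 1.79). Differences between sites were not tested.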

How the data were processed

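CD45+ liver cells were profiled with droplet-based single-cell 3' RNA libraries. The authors trimmed reads with Trim Galore 0.4.3, mapped them with STAR 2.7.7a to GRCm38, counted UMIs over exons and introns, filtered cells, removed doublets with scrublet and kept variable genes. The deposited values are scaled scores, with each gene centred and scaled over both libraries of a site and capped at 10, from which 1 covariate per cell had been regressed out.

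The tests had been planned for counts, so the scores were inverted. For each gene, the cells in which it was not detected lie on 1 line against the covariate, which is the total of UMIs in a cell. In micrometastasis 99.9999% of detected values came out whole within 0.05, and 0.160% were at the cap and are lower bounds. On simulated data of 2345 cells and 1437 genes the inversion returned 100% of UMIs. UMIs were summed per library, or per class, and divided by the summed total UMIs (CPM). Ratios have exact conditional 95% intervals (Clopper-Pearson) that cover counting error only. On simulated libraries of the 2627 genes, 99.5% of 200 changed genes came out past 2-fold and 0 unchanged ones, and 95.4% of intervals held the true ratio. The trimmed mean leaves out 30% of the log2 ratios on each side.

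All 6 libraries were clustered together (scanpy 1.11.5, leidenalg 0.10.2, Python 3.11.15) on 1596 features that all 3 matrices hold for 1 gene without near copies: UMIs per 10000, log scale, 30 principal components, 15 neighbours, resolution 1. Names came from markers: the class that held most of a cluster's 10 leading genes by fold was given to it if at least 3 markers were 2-fold higher and detected in 25% of its cells. A cluster whose only dendritic cell markers were class II genes, and one in which classes tied, stayed unnamed. Class names end in -like, as they were rebuilt here. A doublet score over 0.15, computed anew, was found in 2.82% of Ctrl and 5.21% of Tim3-KD cells, which were kept. Inside a class, genes needed at least 100 UMIs over both libraries and a class level of at least 20% of their highest class level. Inside clusters at least 60 cells in each library and 50 UMIs over both were needed. Standardised levels weight each named class by the mean of its shares of the UMIs of named classes, and the cells of the unnamed clusters are left out of them.

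The genes named by rule were the 10 of highest and 10 of lowest ratio (at least 500 UMIs), the 5 of largest CPM difference in each direction, up to 2 called members of a list in each direction, the 3 of highest and 3 of lowest ratio inside each class of 100 or more cells per library, the 10 of highest and 10 of lowest standardised ratio, and Havcr2. Ribosomal, mitochondrial, haemoglobin and variable receptor genes and features of several genes were left out of it. Other genes, such as Tnf, Cd14 or Mki67, were named after their values had been seen. The members, the 35 gene lists and the alternatives were chosen with earlier results of these data known. The alternatives were other folds and UMI minimums, scalings, class weights, clusterings, sets of cells and thinning to 1500 UMIs per cell. Promoters came from RefSeq, build GRCm38.p6. Results of some genes that the rule names are not reported here.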

Additional observations from a re-analysis of the deposited data

Results flagged for a closer look

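For 5 genes the ratio was past 2-fold in one class and past 2-fold the other way in another, and each difference between classes was not tested, since each class has 1 library a side. Ass1, an enzyme of arginine synthesis, had a log2 ratio of 1.12 in monocyte-like cells (75.3 and 164 CPM in Ctrl and Tim3-KD) and -1.21 in dendritic cell-like cells (60.6 and 26.2 CPM). Gbp5, a guanylate-binding protein, had a log2 ratio of 1.15 in haematopoietic progenitor-like cells (5.04 and 11.2 CPM in Ctrl and Tim3-KD) and -1.13 in monocyte-like cells (12.8 and 5.89 CPM). Havcr2 had a log2 ratio of 1.34 in T-like cells (19.5 and 49.4 CPM in Ctrl and Tim3-KD) and -1.61 in monocyte-like cells (22.6 and 7.38 CPM). Isg15 had a log2 ratio of 1.62 in dendritic cell-like cells (97.9 and 299.98 CPM in Ctrl and Tim3-KD) and -1.39 in monocyte-like cells (194 and 74.03 CPM). Ppp1r15a, a gene of the stress response, had a log2 ratio of 1.02 in dendritic cell-like cells (189.5 and 385 CPM in Ctrl and Tim3-KD) and -1.27 in mature neutrophil-like cells (242 and 100.4 CPM). None of the 5 was past 2-fold in both directions inside clusters, which the libraries fill with different numbers of cells. Inside clusters of the same classes the ratios were 1.05 and 1.08 in monocyte-like and 0.427 in dendritic cell-like clusters for Ass1, 2.23 in the progenitor-like and 0.691 in the larger monocyte-like cluster for Gbp5, 1.4997 in a T-like and 0.579 in the larger monocyte-like cluster for Havcr2, 3.82 in a dendritic cell-like and 0.5896 and 0.743 in monocyte-like clusters for Isg15, and 2.23 in a dendritic cell-like and 0.522 and 0.613 in mature neutrophil-like clusters for Ppp1r15a. In all, 334 pairs of a gene and a class were past 2-fold.

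Features that join several genes were not part of the comparison, and 9 of them were at 0 in one library with many UMIs in the other. In Ctrl, with 0 in Tim3-KD, the UMIs were 76518 for Rpl13 with 1 pseudogene, 50148 for Rpl13 with 2 pseudogenes, 69452 for Rps18.ps3 with Rps18.ps5, 13547 for Rpl36 with a pseudogene, 5029 for Eif4a1 with a pseudogene, and 8591 and 3464 for 2 sets of histone H2A genes. In Tim3-KD, with 0 in Ctrl, they were 25578 for Ly6c1 with Ly6c2 and 3711 for Rps15a with a pseudogene. What the libraries differ in was not tested.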

How the results depend on the processing

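The main counts were 17 higher and 471 lower genes with a median log2 ratio of -0.43. A fold of 1.5 gave 68 and 981, and a fold of 3 gave 4 and 177. Scaling by the trimmed mean gave 75 and 232, with a median of 0.00615. The mean over cells gave 45 higher genes, thinning to 1500 UMIs 42 higher and 301 lower, and leaving out genes often at the cap 11 higher. Without the neutrophil and precursor classes the counts were 61 and 252 (median -0.24), and without B-like cells as well, an alternative added after seeing the data, 55 and 190 (median -0.22). The causes of these moves were not tested. Clustering micrometastasis alone, for shares an alternative added after seeing the data, left a cluster of 629 cells between mature and precursor neutrophils unnamed. Scaling the standardised ratios by their own trimmed mean, also added, gave a median of 0.00169. Counts stayed within 1.5 times the main ones with a minimum of 20 or 500 UMIs, without cells under 3000 UMIs, without cells of a high doublet score, without genes that share reads (added), and, for standardised counts, with the class weights of either library, Leiden clusters or micrometastasis clustered alone.

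The list medians that passed, or no longer passed, 2-fold or changed sign are given here, with others that moved. The value called epithelial is that of Sparc alone. With the classes at the same weight (added) they were 0.65 for acute phase, 0.402 for azurophil, -0.49 for B cell, -0.19 for dendritic cell, -0.37 for endothelial, -0.101 for epithelial, 1.08 for hepatocyte, -0.201 for MHC class II and -0.19 for T cell genes, and they changed sign for cytotoxic and NK (0.0229), eosinophil (0.0221), matrix and clotting (0.12), specific granule (-0.22) and stefin A (-0.12). Relative to the trimmed mean they were -0.78 for cytotoxic and NK, -0.59 for dendritic cell, -0.999 for endothelial, -0.85 for epithelial, 1.199 for mitosis, 1.18 for S phase and -0.64 for T cell genes, and they changed sign for basophil (0.23), progenitor (0.33), IL-1 (0.0272), matrix (0.0454) and mesenchymal genes (0.28). Without neutrophils and precursors they were 2.06 for azurophil, 0.845 for stefin A, 0.805 for acute phase, -0.61 for cytotoxic and NK, -0.73 for dendritic cell, -0.95 for epithelial, 1.12 for mitosis, 1.21 for S phase and -0.46 for T cell genes, and they changed sign for arginine (0.31), basophil (0.39), eosinophil (0.0635), progenitor (0.497) and mesenchymal genes (0.47).

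Of 1113 values of single genes under alternatives, 646 moved by no more than the counting interval of the main value, 467 moved by more, and 0 values past 2-fold changed sign. These do not set whole-library ratios against standardised ones, between which signs did change. No paired analysis was possible because each group has 1 library, and no replicate was there to leave out. Effects of mouse, library and knockdown cannot be told apart, and the matrix holds part of the genes.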
